A study of Mus musculus with 6 samples.

Results

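The collagen chains were taken as the genes of the expression table whose symbol is Col, a number, the letter a and a number, such as *Col1a1*, and 42 of the 18112 genes listed had such a symbol. By the kind of collagen that their proteins build, they were grouped into 11 fibrillar chains, 6 basement-membrane chains, 8 FACIT chains (fibril-associated collagens with interrupted triple helices) and 17 other chains. RNA was measured by RNA-seq in primary aortic VSMCs, smooth muscle cells grown from the medial layer of the aorta of C57BL/6 mice aged 8 to 10 weeks, in 3 libraries of *Smyd2* fl/fl cells (Flox) and 3 of *Smyd2* SMC-/- cells (SMYD2 KO). In *Smyd2* SMC-/- mice a Cre transgene under the *Tagln* (SM22α) promoter removes exon 2 of *Smyd2*, the gene of a lysine methyltransferase, and this promoter is also active outside smooth muscle. *Smyd2* fl/fl mice were littermates with the same floxed alleles and no Cre. The labels give cells of passage 6 in medium with 10% serum, while the study's methods give passage 4 and overnight starvation, and which of these held for the libraries was not settled. No source states that the libraries of a group came from separate animals, so the p-values measure the spread between these libraries, which may be technical.

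Collagens are secreted proteins whose chains wind into a triple helix and then assemble into fibrils, sheets or filaments outside the cell. In the arterial wall fibrillar collagens bear the tensile load, while type IV collagen forms the basement membrane around each smooth muscle cell and type VI collagen forms beaded filaments next to it. VSMCs are the main source of collagen in the arterial media, and cultured VSMCs that have lost their contractile state are known to make much of it.

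Levels were given as FPKM, the fragments of a gene scaled by the length of its transcript and the size of the library, so levels of different genes are compared here per length. Depth was not given, and the steps between low FPKM values put it at about 18000000 to 20900000 fragments a library. These estimates are rough: between 70.6% and 78.1% of the low values used fell within 0.15 of a whole number of fragments, against 30% expected by chance. The depth came from these same low values, so that share is no independent check of it. A fragment length of 100 bases was also assumed. At that depth 1 fragment on a transcript of 5000 bases was worth 0.00976 to 0.0113 FPKM, about the step to which the table was rounded.

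Replicate 1 of both genotypes stood apart. Across the 12565 genes tested, which are not independent replicates, Spearman's rho of replicate 2 with replicate 3 was 0.992 in Flox and 0.989 in SMYD2 KO, and between replicate 1 and the others it ranged from 0.930 to 0.934 and from 0.920 to 0.925. On log2(FPKM + 1), which shrinks the gaps of low chains, replicate 1 was compared with the mean of replicates 2 and 3. Of the 28 collagen chains tested, 6 (21.4%) differed more than 2-fold on this scale in Flox, and 16 (57.1%) did so in SMYD2 KO. Over all genes tested these shares were 9.12% and 10.5%. Results are therefore given for the 6 libraries and for replicates 2 and 3 alone, and in this smaller comparison each group holds only 2 libraries.

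*Smyd2* itself (NCBI Gene number 226830) had 7.87, 3.10 and 3 FPKM in Flox replicates 1, 2 and 3, and 1.67, 0.40 and 0.80 FPKM in SMYD2 KO. The groups did not overlap, and replicate 1 was the highest library of each. The log2 fold change was −1.48 ± 0.39 (SE, n = 3 against 3) with limma's adjusted p of 0.11 without a block and 0.019 with a block for the replicate number. For replicates 2 and 3 alone it was −1.35 with limma's adjusted p of 0.0013, and over 13 alternatives the adjusted p ran from 0.0013 to 0.31.

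The cells were checked against marker lists. Of 8 smooth muscle markers, *Acta2* (smooth muscle actin) was the most abundant, at 761, 682 and 683 FPKM in Flox and 201, 268 and 262 FPKM in SMYD2 KO, and it fell by 1.55 on the log2 scale with limma's adjusted p of 0.008. The defining late marker *Myh11* was at most 0.22 FPKM in any library, and so was *Des*, so the label of smooth muscle rested on the other markers. The 8 smooth muscle markers summed to 923, 825 and 818 FPKM in Flox and 265, 436 and 386 FPKM in SMYD2 KO, and without a block limma called 1 of the 6 tested lower (*Acta2*), against 1.21% of all genes. The lower sum was mostly *Acta2*, and 4 of the 6 tested had a log2 fold change below 0. *Tagln* had 80.5, 79.1 and 70.3 FPKM in Flox and 12.5, 87.3 and 57.1 FPKM in SMYD2 KO, and *Cnn1* had 21.0, 4.86 and 5.11 FPKM and 2.70, 5.07 and 4.32 FPKM, so both differed mainly in replicate 1. *Smtn* had overlapping groups, and *Mylk* and *Lmod1* were called higher in replicates 2 and 3 alone. The 8 fibroblast markers summed to 371, 1020.5 and 877 FPKM in Flox and 93.2, 579 and 526 FPKM in SMYD2 KO. Among them *Dcn* (decorin) was the most abundant by the mean of the 6 libraries. It had 13.9, 311 and 257 FPKM in Flox and 25.6, 383 and 350.5 FPKM in SMYD2 KO, so that it was low in replicate 1 of both genotypes. In each Flox library *Ly6a* was above *Dcn*, with 52.6, 378 and 327 FPKM, and *Ly6a* had 36.35, 141 and 130 FPKM in SMYD2 KO. *Dpt* (dermatopontin), another fibroblast marker, had 144, 90.3 and 65.5 FPKM in Flox against 3.31, 1.15 and 0.63 FPKM in SMYD2 KO. Without a block limma called it lower, as it did *Serpinf1*. With the replicate block 4 of the 8 were called lower (these, *Cd34* and *Ly6a*), against 5.72% of all genes. In replicates 2 and 3 alone 6 of the 8 were called lower (these 4, *Pdgfra* and *Pi16*), against 17.2% of all genes, and *Lum* higher, against 11.9%. By the study's methods the endothelium and adventitia were taken off before the cells were grown, and each isolation was stained for smooth muscle actin as a test of purity. In these bulk samples fewer cells of a kind and less RNA per cell cannot be told apart.

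Of the markers of other cells, 1 of 8 endothelial, 4 of 6 macrophage, 2 of 4 Schwann cell, 2 of 8 chondrocyte, 2 of 6 osteoblast, 3 of 3 mesothelial and 1 of 3 adipocyte genes were abundant enough to be tested, and a defining marker of most lists was near 0. The endothelial *Cldn5*, the chondrocyte *Acan*, *Hapln1*, *Cnmd* and *Snorc* and the osteoblast *Ibsp* were not among the genes listed, so they had no value. In the endothelial list *Kdr* led by the mean of the 6 libraries and *Pecam1* led in each Flox library. The list summed to 1.71, 2.65 and 2.59 FPKM in Flox and 2.44, 5.63 and 3.04 FPKM in SMYD2 KO, with *Cdh5* at 0.01 FPKM or less. *Kdr* was higher in SMYD2 KO without overlap, with 0.47, 0.58 and 0.84 FPKM against 0.96, 5.15 and 2.96 FPKM, and was called in replicates 2 and 3 alone. *Pecam1*, of the same list, was lower in SMYD2 KO without overlap, with 0.56, 0.88 and 0.92 FPKM against 0.12, 0.18 and 0 FPKM, at a level too low for the test. The macrophage list held *Ptprc* and *Adgre1* at 0.02 FPKM or less and had *Cd14* as its most abundant gene, its sum being 42.6, 30 and 26.7 FPKM in Flox and 40.9, 18.3 and 22.7 FPKM in SMYD2 KO. In the same list *Csf1r* was higher in SMYD2 KO without overlap and called in replicates 2 and 3 alone, where *Lyz2* was called lower. The Schwann cell list summed to 1.71, 2.84 and 2.55 FPKM and to 7.25, 15.0 and 14.1 FPKM through *Mbp*, which was called higher in SMYD2 KO, with *Sox10* at 0.02 FPKM or less. The chondrocyte list summed to 21.7, 16.9 and 18.1 FPKM in Flox and 12.2, 6.94 and 9.23 FPKM in SMYD2 KO, nearly all of it *Sox9*, which was lower without overlap and called with the replicate block and in replicates 2 and 3 alone, with *Matn1* at 0.03 FPKM or less. The osteoblast list, led by *Runx2*, summed to 24.2, 11.4 and 13.0 FPKM and to 20.4, 9.07 and 10.1 FPKM, with *Sp7* at 0.07 FPKM or less. The mesothelial list, led by *Upk3b*, was low in replicate 1 of both genotypes, at 10.2, 67.3 and 64.8 FPKM in Flox and 17.2, 137 and 79.2 FPKM in SMYD2 KO. Its members differed in direction, as *Upk3b* and *Wt1* were called higher with the replicate block and *Msln* was called lower in replicates 2 and 3 alone. The adipocyte list summed to 6.24, 5.04 and 3.12 FPKM in Flox and 119, 5.39 and 6.07 FPKM in SMYD2 KO, nearly all of it *Fabp4*, with *Plin1* at 0.03 FPKM or less. The part of these differences in the collagen results was not tested.

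Of the 42 chains, 28 had a mean FPKM of 0.5 or more and were tested. Without a block, limma called 1 of the 28 chains lower in SMYD2 KO at an adjusted p under 0.05 (*Col6a3*), against 1.21% of all genes tested, and 0 higher, against 1.23%. At an unadjusted p under 0.05, 4 chains were lower, against 11.2% of all genes, and 3 higher, against 9.16%. With the replicate block limma called 1 chain lower (*Col6a3*), against 5.72% of all genes, and 2 higher (*Col14a1* and *Col8a1*), against 4.72%. Over replicates 2 and 3 alone 7 chains were called lower, against 17.2% of all genes, and 5 higher, against 11.9%. Among these 12, *Col27a1*, *Col4a3* and *Col10a1* passed the filter only through the group where they were high. The groups of 3 did not overlap for 4 chains that were lower in SMYD2 KO, against 15.0% of all genes tested, and for 3 that were higher, against 13.1%. No test of these counts against those of all genes was made, and nothing is read from them as particular to collagen. Over the 28 chains the median log2 fold change was 0.12, with 19 above 0 and 9 below, and over all genes it was −0.02 with 6032 above and 6533 below. The medians in replicates 2 and 3 alone were 0.07 for the chains and −0.06 for all genes.

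**Figure D1:**
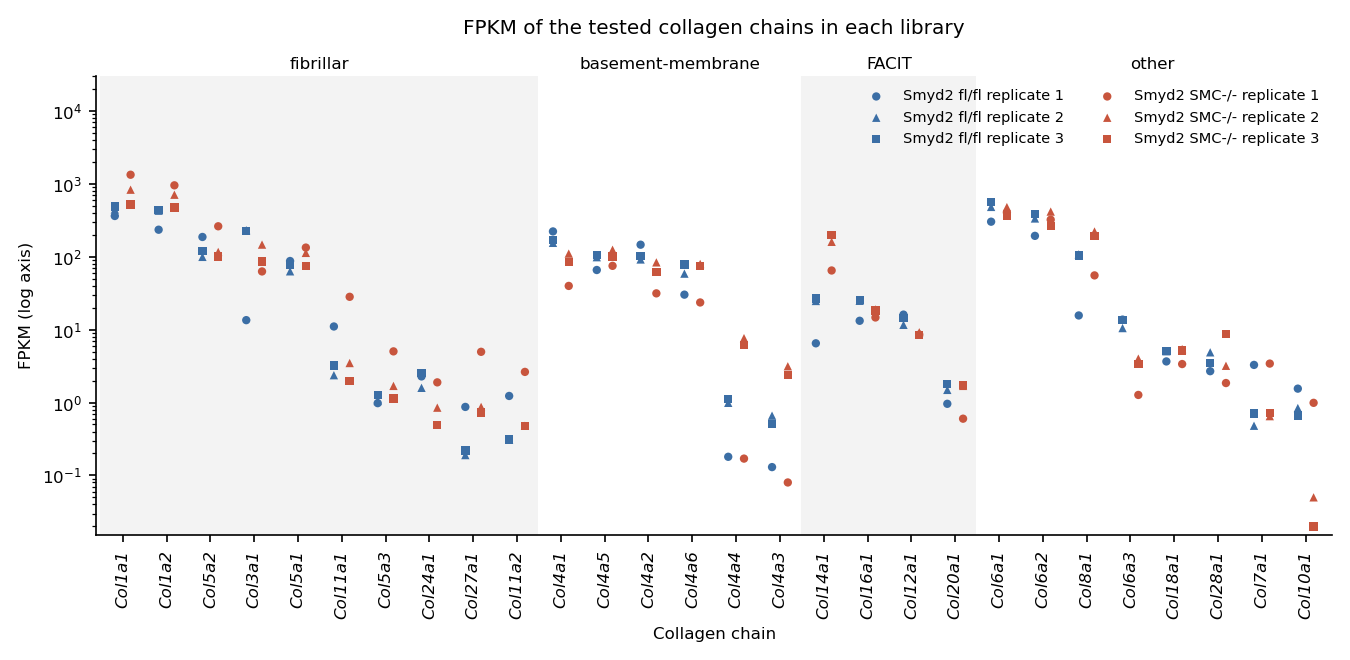
FPKM of the 28 tested collagen chains (x axis) in each library on a log y axis, with *Smyd2* fl/fl in blue, *Smyd2* SMC-/- in red and replicates 1, 2 and 3 as circles, triangles and squares. A value of 0 is drawn at 0.02. *Col1a1*, *Col1a2*, *Col6a1* and *Col6a2* lie highest on average, and circles often lie away from the triangles and squares of the same color.

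Fibrillar chains build the striated fibrils, and 10 of the 11 were tested. *Col1a1* (NCBI Gene number 12842), the alpha1 chain of type I collagen, was the most abundant collagen RNA by the mean of the 6 libraries. In Flox alone the mean of *Col6a1* was higher, at 451 against 433 FPKM. *Col1a1* had 362, 444 and 491 FPKM in Flox and 1333, 831 and 522 FPKM in SMYD2 KO. Every SMYD2 KO library lay above every Flox library, by little in replicate 3 and by most in replicate 1. *Col1a2* (12843), the alpha2 chain, had 235, 428 and 433 FPKM in Flox and 954, 709 and 474 FPKM in SMYD2 KO. It showed the same order, again without overlap. The means were 2.07-fold higher for *Col1a1* and 1.95-fold higher for *Col1a2*, yet neither passed the test, with log2 fold changes of 0.96 ± 0.34 and 0.96 ± 0.34 (SE, n = 3 against 3) and limma's adjusted p of 0.19 for both. Between same-numbered libraries *Col1a1* differed by 1.88, 0.90 and 0.09 on the log2 scale, so the difference of replicate 1 was the largest. In replicates 2 and 3 alone the log2 fold changes were 0.49 and 0.43, with limma's adjusted p of 0.13 for both, and over 13 alternatives the adjusted p ran from 0.092 to 0.36 and from 0.11 to 0.38.

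*Col3a1* (12825), the chain of type III collagen, which is mixed into type I fibrils in arteries, had 13.5, 231 and 225 FPKM in Flox and 62.8, 147 and 85.6 FPKM in SMYD2 KO. Replicate 1 of Flox was far below all other libraries, and the groups overlapped. The log2 fold change over the 6 libraries was 0.03 ± 1.08 with limma's adjusted p of 0.99. In replicates 2 and 3 alone, where both Flox values were above both SMYD2 KO values, it was −1.02 ± 0.25 with limma's adjusted p of 0.028, the lowest over 13 alternatives, which reached 1. Leaving out Flox replicate 1 (−1.29) or SMYD2 KO replicate 2 (−0.30) also turned the direction of *Col3a1*, and leaving out SMYD2 KO replicate 1 did not (0.31).

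Type V collagen is a minor component that nucleates type I fibrils. *Col5a1* (12831) had 87.3, 63.1 and 76.8 FPKM in Flox and 134, 113 and 75.1 FPKM in SMYD2 KO, and *Col5a2* (12832) had 187, 99.5 and 119 FPKM and 262, 116 and 101 FPKM. Both overlapped between the groups, and *Col5a2* was highest in replicate 1 of each genotype. Their log2 fold changes were 0.47 ± 0.24 and 0.16 ± 0.40, with limma's adjusted p of 0.33 and 0.88, and in replicates 2 and 3 alone they were 0.40 and −0.01. *Col5a3* (53867), a rarer chain of the same collagen, had 0.98, 1.05 and 1.26 FPKM in Flox and 5.03, 1.69 and 1.13 FPKM in SMYD2 KO, with a log2 fold change of 0.64 ± 0.39 and limma's adjusted p of 0.42. Its highest library was SMYD2 KO replicate 1, and in replicates 2 and 3 alone the log2 fold change was 0.15.

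The type XI chain *Col11a1*, a cartilage collagen related to type V, was also high in replicate 1, with 11.0, 2.37 and 3.23 FPKM in Flox and 28.2, 3.48 and 1.98 FPKM in SMYD2 KO. *Col11a2* had the same layout at 0.31 to 2.63 FPKM. *Col27a1*, of the fibrillar type XXVII, had 0.87, 0.19 and 0.22 FPKM in Flox and 4.96, 0.87 and 0.73 FPKM in SMYD2 KO, and was higher in SMYD2 KO in each same-numbered pair. It was called in replicates 2 and 3 alone (log2 fold change 0.58 ± 0.14, limma's adjusted p = 0.018) and not over the 6 libraries (0.94 ± 0.50, limma's adjusted p = 0.35), and its adjusted p over 13 alternatives ran from 0.018 to 0.57. Its mean in Flox was 0.43 FPKM, so it passed the filter only through SMYD2 KO and the call is no support for a difference. *Col24a1*, a fibrillar chain best known from bone, had 2.28, 1.59 and 2.55 FPKM and 1.89, 0.85 and 0.49 FPKM, and was lower in replicates 2 and 3 alone by the same test (log2 fold change −0.87 ± 0.20, limma's adjusted p = 0.015, over the alternatives 0.015 to 0.62). *Col2a1*, the main cartilage collagen, was at most 0.23 FPKM in any library. In all, 9 of the 10 tested fibrillar chains had a log2 fold change above 0, also after rescaling to TPM, which moved the median of all genes by 0.11 on the log2 scale, and after quantile normalization, and 6 of 10 did in replicates 2 and 3 alone.

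Type IV collagen is the network former of basement membranes, and its common form is built from *Col4a1* and *Col4a2*. *Col4a1* (12826) had 222, 155 and 171 FPKM in Flox and 39.8, 110.4 and 83.9 FPKM in SMYD2 KO. *Col4a2* (12827) had 146, 91.7 and 103 FPKM in Flox and 31.4, 83.7 and 61.7 FPKM in SMYD2 KO. For both chains all 3 SMYD2 KO libraries were below all 3 Flox libraries, and replicate 1 was the highest library of Flox and the lowest of SMYD2 KO. The means were 2.34-fold and 1.93-fold higher in Flox. The log2 fold changes of −1.32 ± 0.37 and −1.01 ± 0.37 did not pass the test, with limma's adjusted p of 0.12 and 0.20. In replicates 2 and 3 alone *Col4a1* was called lower (−0.75 ± 0.15, limma's adjusted p = 0.0091), and *Col4a2* was not (−0.43 ± 0.15, limma's adjusted p = 0.076). Over 13 alternatives the adjusted p of *Col4a1* ran from 0.0091 to 0.28, and its log2 fold change from −1.63 to −0.75.

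The other type IV chains did not follow *Col4a1*. *Col4a5* (12830), on the X chromosome, had 65.8, 98.5 and 105 FPKM in Flox and 75.0, 125 and 101 FPKM in SMYD2 KO, and *Col4a6* (94216), its neighbor, had 30.2, 58.6 and 78.0 FPKM and 23.6, 79.6 and 74.1 FPKM. Both were lowest in replicate 1 of each genotype, the groups overlapped, and their log2 fold changes were 0.16 ± 0.25 and 0.01 ± 0.54, with limma's adjusted p of 0.79 and 1. The ratio of *Col4a5* to *Col4a1* FPKM was 0.296, 0.636 and 0.613 in Flox and 1.89, 1.13 and 1.20 in SMYD2 KO, so *Col4a1* was the more abundant of the pair in each Flox library and *Col4a5* in each SMYD2 KO library. *Col4a4* (12829) and *Col4a3* (12828), chains of a form best known from the kidney glomerulus, were far rarer. *Col4a4* had 0.18, 0.99 and 1.12 FPKM in Flox and 0.17, 7.64 and 6.10 FPKM in SMYD2 KO, and *Col4a3* had 0.13, 0.66 and 0.51 FPKM and 0.08, 3.14 and 2.38 FPKM. Replicate 1 was near 0 in both genotypes, and the difference was seen in replicates 2 and 3 only. The log2 fold changes were 1.28 ± 0.76 and 0.81 ± 0.51 over the 6 libraries, with limma's adjusted p of 0.41 and 0.44. Without replicate 1 they were 1.93 ± 0.15 and 1.24 ± 0.16, with limma's adjusted p of 0.00017 and 0.0015, and over 13 alternatives the adjusted p reached 0.74 and 0.75. Leaving out SMYD2 KO replicate 1 moved the log2 fold changes to 2.20 and 1.40, and leaving out SMYD2 KO replicate 2 to 0.76 and 0.43. The mean of *Col4a3* in Flox was 0.43 FPKM, so *Col4a3* passed the filter only through SMYD2 KO and its call is no support for a difference.

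The 6 type IV genes lie as head-to-head pairs. In the GENCODE M21 annotation of GRCm38, *Col4a4* and *Col4a3* on chromosome 1 lie on opposite strands with 71 bases between their starts, *Col4a1* and *Col4a2* on chromosome 8 overlap by 22 bases at their starts, and *Col4a6* and *Col4a5* have 1308 bases between theirs. In the RefSeq annotation of the same assembly *Col4a4* and *Col4a3* overlap as well, and so do *Col16a1* with *Gm12963*, *Col10a1* with *Nt5dc1* and *Col9a3* with *Tcfl5*. Reads over such an overlap could belong to either gene if strand was not used in counting, which the sources used here do not state.

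**Figure D2:**
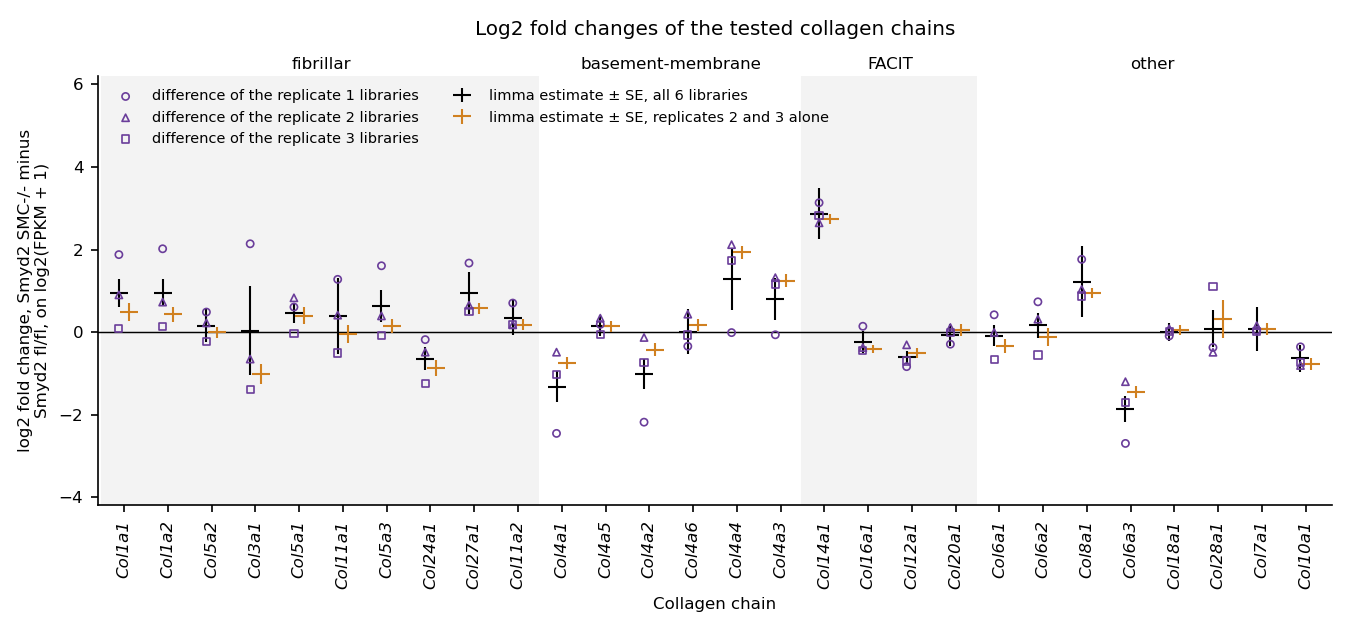
Log2 fold change (y axis, *Smyd2* SMC-/- minus *Smyd2* fl/fl on log2(FPKM + 1)) of the 28 tested chains (x axis), as limma's estimate ± SE over 6 libraries (black) and over replicates 2 and 3 alone (orange), with the difference of each same-numbered pair of libraries as an open symbol. The black marks reach from −1.87 for *Col6a3* to 2.87 for *Col14a1*, and the replicate 1 pair (circles) lies apart from the other pairs for *Col3a1*, *Col4a1* and *Col4a4*.

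FACIT chains attach to the surface of fibrils, and 4 of the 8 were tested. *Col14a1* (12818), a FACIT chain that limits the sideways growth of fibrils, had 6.49, 24.7 and 26.8 FPKM in Flox and 64.8, 160.1 and 197 FPKM in SMYD2 KO. Each SMYD2 KO library was above every Flox library, and replicate 1 was the lowest of each genotype. The mean was 7.26-fold higher in SMYD2 KO, and same-numbered libraries differed by 3.13, 2.65 and 2.83 on the log2 scale, so all 3 pairs showed it to a like extent. The log2 fold change of 2.87 was the highest among the 28 chains. Its SE was 0.62 and limma's adjusted p was 0.068 without a block, and with the replicate block the SE was 0.13 and limma's adjusted p was 0.0032. Without replicate 1 it was 2.74 ± 0.13 with limma's adjusted p of 1.76e-05, and over 13 alternatives the adjusted p reached 0.25.

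*Col12a1* (12816), a related FACIT chain found where tissue bears load, went the other way, with 16.1, 11.6 and 14.3 FPKM in Flox and 8.55, 9.20 and 8.41 FPKM in SMYD2 KO. The groups did not overlap, and neither genotype had replicate 1 far from the rest. The log2 fold change was −0.62 ± 0.15 with limma's adjusted p of 0.091, and −0.50 with limma's adjusted p of 0.024 in replicates 2 and 3 alone, the adjusted p over 13 alternatives running from 0.022 to 0.31. *Col16a1* (107581) had 13.2, 24.9 and 25.5 FPKM and 14.7, 19.0 and 18.4 FPKM, and was called lower in replicates 2 and 3 alone (−0.41 ± 0.10, limma's adjusted p = 0.017, over the alternatives 0.017 to 0.93). *Col20a1* was between 0.60 and 1.78 FPKM with overlapping groups.

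Type VI collagen is assembled from *Col6a1*, *Col6a2* and a longer chain, most often *Col6a3*. *Col6a3* (12835) had 13.7, 10.5 and 13.5 FPKM in Flox and 1.27, 4 and 3.41 FPKM in SMYD2 KO. All 3 SMYD2 KO libraries were below all 3 Flox libraries, and the mean was 4.34-fold higher in Flox. *Col6a3* was the chain that passed the test over the 6 libraries, with a log2 fold change of −1.87 ± 0.31 (SE, n = 3 against 3) and limma's adjusted p of 0.041. In replicates 2 and 3 alone the log2 fold change was −1.46 ± 0.15 with limma's adjusted p of 0.00052. Over 13 alternatives the log2 fold change ran from −2.22 to −1.46 and limma's adjusted p from 0.00052 to 0.17, and *Col6a3* was called in 5 of the 13. It was not called without Flox replicate 1 (adjusted p by limma 0.083), 2 (0.14) or 3 (0.17) or without SMYD2 KO replicate 2 (0.088) or 3 (0.14), and was called without SMYD2 KO replicate 1 (0.013).

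The partner chains of *Col6a3* were not called. *Col6a1* (12833) had 303, 482 and 569 FPKM in Flox and 405, 480 and 359.7 FPKM in SMYD2 KO, and *Col6a2* (12834) had 193, 335 and 386 FPKM and 322, 416 and 262 FPKM. Both were among the 5 most abundant chains, and their groups overlapped. The log2 fold changes were −0.08 ± 0.25 for *Col6a1*, which turned above 0 after rescaling to TPM (0.04) and after quantile normalization (0.15), and 0.16 ± 0.30 for *Col6a2*, with limma's adjusted p of 0.90 and 0.82, and in replicates 2 and 3 alone they were −0.33 and −0.12. *Col6a1* exceeded *Col6a3* in FPKM by 22.0, 45.9 and 42.3 times in Flox and by 319, 120 and 105 times in SMYD2 KO, without overlap. The alternative long chains *Col6a4*, *Col6a5* and *Col6a6* were all under the level required for the test. *Col6a6* had 0, 0.01 and 0 FPKM in Flox and 0.43, 0.19 and 0.30 FPKM in SMYD2 KO, and *Col6a5* had 0.01, 0.01 and 0 FPKM and 0.14, 0.05 and 0.05 FPKM. Both were above Flox in every SMYD2 KO library, at levels too low for the test, and were chosen after their values were seen.

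The stretch of 220 bases upstream of every annotated start of *Col6a3*, the chain that was called, is given here from RefSeq for GRCm38.p6, at chr1:90844002-90844221 on the minus strand. That of *Col8a1*, which was called higher with the replicate block, has 250 bases at chr16:57754738-57754987, also on the minus strand. Capitals mark matches on either strand to the motifs searched, which were TATAAA (the TATA box), the motif CCAAT, the motif GGGCGG of GC boxes and the CArG box, of which none overlap here.
Col6a3: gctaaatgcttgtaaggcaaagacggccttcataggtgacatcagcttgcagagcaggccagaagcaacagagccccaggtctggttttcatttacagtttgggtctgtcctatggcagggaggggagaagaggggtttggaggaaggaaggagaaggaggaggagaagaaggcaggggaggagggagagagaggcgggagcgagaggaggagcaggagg
Col8a1: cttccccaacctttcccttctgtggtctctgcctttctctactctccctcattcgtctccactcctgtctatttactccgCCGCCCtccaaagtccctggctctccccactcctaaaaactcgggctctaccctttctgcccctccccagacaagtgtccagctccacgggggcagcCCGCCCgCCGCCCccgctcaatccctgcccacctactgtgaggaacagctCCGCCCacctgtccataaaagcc
The *Col6a3* stretch held none of these letters, and the *Col8a1* stretch held GGGCGG 4 times, each on the other strand, and none of the others. Over the 250 bases, 32.7% of 32817 RefSeq promoters held GGGCGG, 33.8% CCAAT, 12.4% TATAAA and 1.47% a CArG box. Over the 220 bases the shares were 28.5%, 31.0%, 9.96% and 1.30%. Of 35 promoters of collagen chains, 22 (62.9%) held GGGCGG over 250 bases and 18 (51.4%) over 220. A promoter of the table was found for 33 of the 42 chains.

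*Col8a1* (12837), a short chain of the network-forming type VIII collagen that VSMCs make after arterial injury, had 15.6, 108 and 104 FPKM in Flox and 55.4, 222 and 192 FPKM in SMYD2 KO. Replicate 1 was the lowest library of each genotype by a wide margin, so the groups overlapped although SMYD2 KO was higher in each same-numbered pair, by 1.76, 1.03 and 0.88 on the log2 scale. The log2 fold change was 1.22 ± 0.86 with limma's adjusted p of 0.49, and with the replicate block its SE was 0.19 and limma's adjusted p was 0.031. Over replicates 2 and 3 alone it was 0.96 ± 0.12 with limma's adjusted p of 0.0013, and over 13 alternatives the adjusted p ran from 0.0013 to 0.80. Leaving out Flox replicate 1 moved the log2 fold change to 0.33, and leaving out SMYD2 KO replicate 1 moved it to 1.85. Among the remaining chains *Col10a1*, the type X chain of growth-plate cartilage, had 1.55, 0.84 and 0.66 FPKM in Flox and 0.99, 0.05 and 0 FPKM in SMYD2 KO. It was called lower in replicates 2 and 3 alone (−0.77 ± 0.14, limma's adjusted p = 0.0067, over the alternatives 0.0067 to 0.68). Its mean in SMYD2 KO was 0.35 FPKM, so it passed the filter only through Flox and the call is no support for a difference. *Col18a1*, the multiplexin that carries endostatin, was between 3.37 and 5.41 FPKM with overlapping groups. *Col7a1*, the anchoring fibril chain, had 3.28, 0.48 and 0.71 FPKM in Flox and 3.42, 0.65 and 0.72 FPKM in SMYD2 KO, so that it was high in replicate 1 of both genotypes. *Col28a1* was between 1.85 and 8.71 FPKM, highest in SMYD2 KO replicate 3.

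The other 14 chains had a mean under 0.5 FPKM. They were 1 fibrillar, 4 FACIT and 9 other chains, and no basement-membrane chain was among them. The highest single value among the 14 was 0.94 FPKM, for *Col9a3* in SMYD2 KO replicate 1. *Col15a1*, a basement-membrane zone multiplexin, had 0.03, 0.45 and 0.45 FPKM in Flox and 0, 0.05 and 0.09 FPKM in SMYD2 KO.

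The 42 chains lie on 15 chromosomes, with 6 each on chromosomes 1 and 9. In the gene ontology terms of the table, 22 of the 42 carried collagen trimer (44 genes in all), 13 basement membrane (79 genes) and 17 extracellular matrix structural constituent (40 genes), so the terms cover the chains in part.

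Summed over the 42 chains, collagen RNA came to 1940 FPKM, 2688 FPKM and 2964 FPKM in Flox and 3842 FPKM, 3654 FPKM and 2649 FPKM in SMYD2 KO. The groups overlapped through replicate 3, and the order of the libraries was not that of replicate 1 against the rest. The mean of the sum was 1.34-fold higher in SMYD2 KO (2531 ± 529.9 against 3382 ± 641 FPKM, mean ± SD, n = 3 each), and 1.12-fold in replicates 2 and 3 alone. As a share of the total FPKM of a library, collagen made up 0.468%, 0.595% and 0.702% in Flox and 0.981%, 0.913% and 0.682% in SMYD2 KO. Type I collagen took 30.8%, 32.5% and 31.2% of the collagen FPKM in Flox and 59.5%, 42.1% and 37.6% in SMYD2 KO, and without *Col1a1* the sums were 1.19-fold higher. The basement-membrane chains took 24.0%, 15.1% and 15.5% of it in Flox and 4.43%, 11.2% and 12.4% in SMYD2 KO, without overlap, while their summed FPKM overlapped (465, 406 and 459 in Flox, 170.01, 409 and 329 in SMYD2 KO). FACIT chains took 1.92%, 2.34% and 2.31% and then 2.33%, 5.21% and 8.52%, most of it *Col14a1* in each SMYD2 KO library. Shares of a sum are tied to each other, and a higher share of type I collagen lowers the rest.

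**Figure D3:**
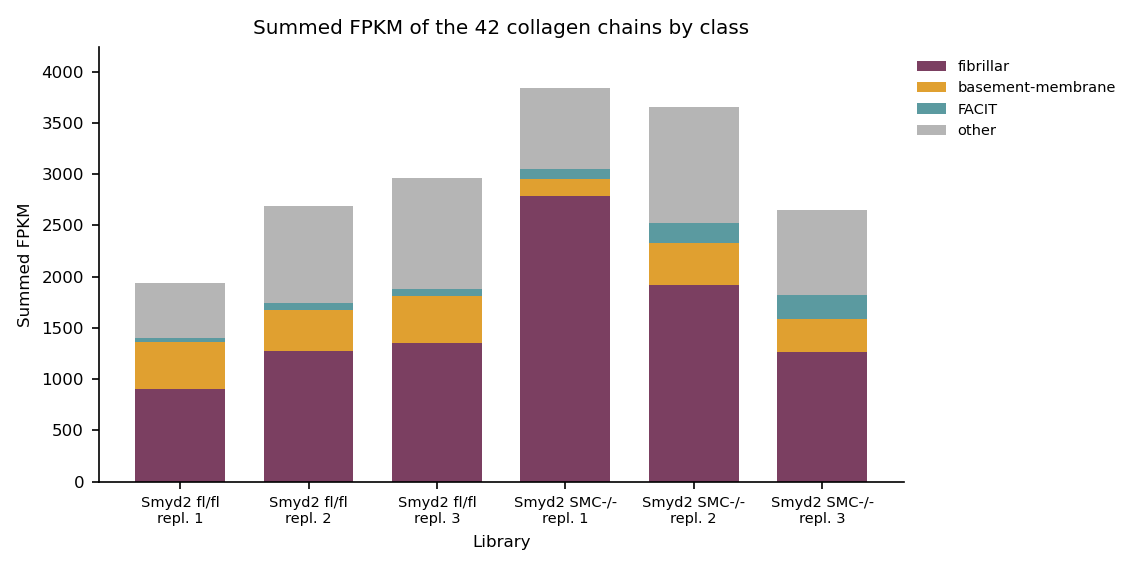
Summed FPKM (y axis) of the 42 collagen chains in each library (x axis), stacked by class from 0. The fibrillar part reaches 2788 in *Smyd2* SMC-/- replicate 1 and 901 in *Smyd2* fl/fl replicate 1, and the basement-membrane part is smallest in *Smyd2* SMC-/- replicate 1, at 170.01.

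Chains that share a protein were compared as ratios of FPKM, which no scaling of a library can change. The ratio of *Col1a1* to *Col1a2* was 1.54, 1.04 and 1.13 in Flox and 1.40, 1.17 and 1.10 in SMYD2 KO. It was higher in replicate 1 of both genotypes and overlapped between them. The ratio of *Col4a1* to *Col4a2* was 1.52, 1.69 and 1.66 in Flox and 1.26, 1.32 and 1.36 in SMYD2 KO, so it was lower in each SMYD2 KO library. The ratio of *Col6a1* to *Col6a2* was 1.56, 1.44 and 1.48 in Flox and 1.26, 1.15 and 1.37 in SMYD2 KO, also without overlap. The ratio of *Col4a4* to *Col4a3* was 1.38, 1.50 and 2.20 and then 2.13, 2.43 and 2.56, and the groups overlapped. Also computed, and not drawn, were the ratios of *Col4a5* to *Col4a6*, *Col5a2* to *Col5a1*, *Col1a1* to *Col3a1* and *Col1a1* to *Col5a1*. Each of these overlapped between the groups. The ratios were not tested, and no share over other pairs of genes is given beside them.

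**Figure D4:**
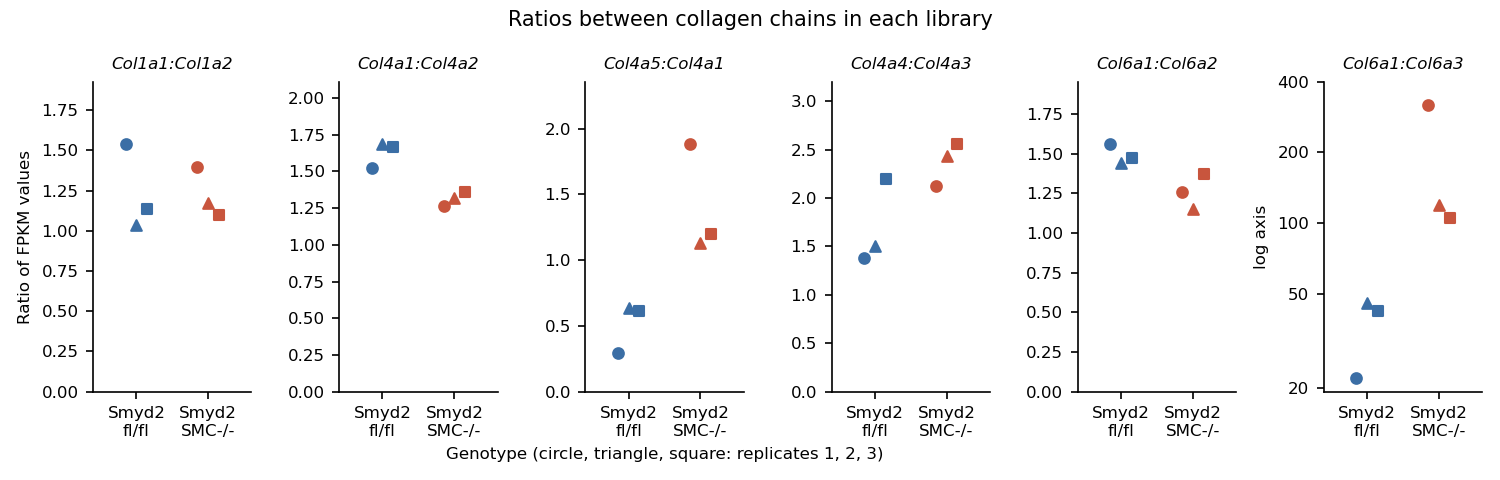
Ratios of FPKM (y axis, from 0 except for the log axis of *Col6a1* to *Col6a3*) between 6 pairs of collagen chains in each library, by genotype (x axis), with replicates 1, 2 and 3 as circles, triangles and squares. *Col4a5* to *Col4a1* and *Col6a1* to *Col6a3* lie higher in every *Smyd2* SMC-/- library, and *Col4a1* to *Col4a2* and *Col6a1* to *Col6a2* lie lower.

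The genes that modify, fold, trim and cross-link collagen were described from a list of 35 biosynthesis genes, of which 31 were tested. Without a block limma called 1 of them, *Plod2*, higher in SMYD2 KO, against 1.23% of all genes, and 0 lower, against 1.21%, and at an unadjusted p under 0.05 there were 8 higher and 1 lower, against 9.16% and 11.2% of all genes. With the replicate block limma called 7 higher, against 4.72% of all genes, and 0 lower, against 5.72%. Replicates 2 and 3 alone gave 12 higher, against 11.9%, and 2 lower (*Pcolce2* and *Loxl4*), against 17.2%. Of the 31, 26 had a log2 fold change above 0, against 6032 of 12565 over all genes tested, and the median was 0.33 against −0.02. The groups did not overlap for 11 genes that were higher, against 13.1% of all genes, and 1 that was lower, against 15.0%. The list was not tested as a whole. By step, 11 of 14 genes of hydroxylation and glycosylation, 6 of 6 of folding and export, 5 of 6 of propeptide processing and 4 of 5 of cross-linking lay above 0.

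*Plod2*, the lysyl hydroxylase that acts on the telopeptides and so sets the kind of cross-link, had 66.8, 78.2 and 78.1 FPKM in Flox and 219.7, 361 and 284 FPKM in SMYD2 KO. Every SMYD2 KO library was above every Flox library, replicate 1 included. Its log2 fold change was 1.91 ± 0.20 (SE, n = 3 against 3) with limma's adjusted p of 0.0096, and it was called in 10 of 13 alternatives, with an adjusted p of up to 0.063. It was not called without Flox replicate 2 (adjusted p by limma 0.061) or 3 (0.063) or without SMYD2 KO replicate 3 (0.062). *Plod3*, which also adds sugars to hydroxylysine, had 56.8, 43.6 and 40.5 FPKM in Flox and 92.6, 74.0 and 75.2 FPKM in SMYD2 KO. Its groups did not overlap either, and limma's adjusted p was 0.072 without and 0.020 with the replicate block at a log2 fold change of 0.77 ± 0.17. *Plod1*, the helical lysyl hydroxylase, was between 14.2 and 19.9 FPKM with overlapping groups. The chaperone gene *Fkbp14* had 10.8, 12.4 and 11.1 FPKM and 20.5, 18.5 and 16.5 FPKM, and limma's adjusted p was 0.065 without and 0.039 with the block. *Crtap*, of the prolyl 3-hydroxylation complex, had 45.9, 65.9 and 59.1 FPKM and 58.3, 101 and 98.0 FPKM with overlap, and limma's adjusted p was 0.28 without and 0.046 with the block. *Bmp1*, the procollagen C-proteinase, had 96.3, 76.2 and 82.6 FPKM and 132, 108 and 108 FPKM without overlap, with limma's adjusted p of 0.17 without and 0.049 with the block. Over 13 alternatives the adjusted p ran from 0.0012 to 0.23 for *Plod3*, 0.012 to 0.22 for *Fkbp14*, 0.0039 to 0.61 for *Crtap* and 0.018 to 0.40 for *Bmp1*.

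Lysyl oxidases cross-link collagen and elastin outside the cell. *Lox* had 82.6, 327 and 315 FPKM in Flox and 347, 1075 and 984 FPKM in SMYD2 KO. Replicate 1 was the lowest of each genotype, and even so the groups did not overlap. The log2 fold change was 1.80 ± 0.66 with limma's adjusted p of 0.20, and with the block limma's adjusted p was 0.007. *Loxl2*, which acts on type IV collagen, had 8.06, 33.2 and 38.7 FPKM and 20.8, 133 and 65.2 FPKM, with limma's adjusted p of 0.42 without and 0.039 with the block at a log2 fold change of 1.32 ± 0.80. *Loxl1*, needed for elastic fibers, was equal in replicate 1 at 14.2 FPKM in both genotypes, and in replicates 2 and 3 it had 17.6 and 15.8 FPKM in Flox and 34.8 and 33.1 FPKM in SMYD2 KO. It was called higher in replicates 2 and 3 alone (log2 fold change 0.98 ± 0.10, limma's adjusted p = 0.00062) and without SMYD2 KO replicate 1 (0.020), and not over the 6 libraries (log2 fold change 0.66, limma's adjusted p = 0.33). *Loxl2* was not called in replicates 2 and 3 alone (limma's adjusted p = 0.067). *Loxl3* was between 17.1 and 24.7 FPKM and overlapped. *Loxl4* had 52.5, 17.1 and 18.5 FPKM and 17.7, 13.0 and 11.2 FPKM, and was called lower in replicates 2 and 3 alone by limma (adjusted p = 0.013). The groups of *Loxl4* overlapped, as the replicate 1 library of SMYD2 KO exceeded replicate 2 of Flox. Over 13 alternatives the adjusted p ran from 0.00012 to 0.48 for *Lox*, 0.00062 to 0.67 for *Loxl1*, 0.020 to 0.72 for *Loxl2* and 0.013 to 0.64 for *Loxl4*. For *Loxl2* the log2 fold change was 0.65 without Flox replicate 1, 0.72 without SMYD2 KO replicate 2 and 2.03 without SMYD2 KO replicate 1, and without Flox replicate 1 that of *Lox* was 1.15 and that of *Loxl4* −0.35.

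**Figure D5:**
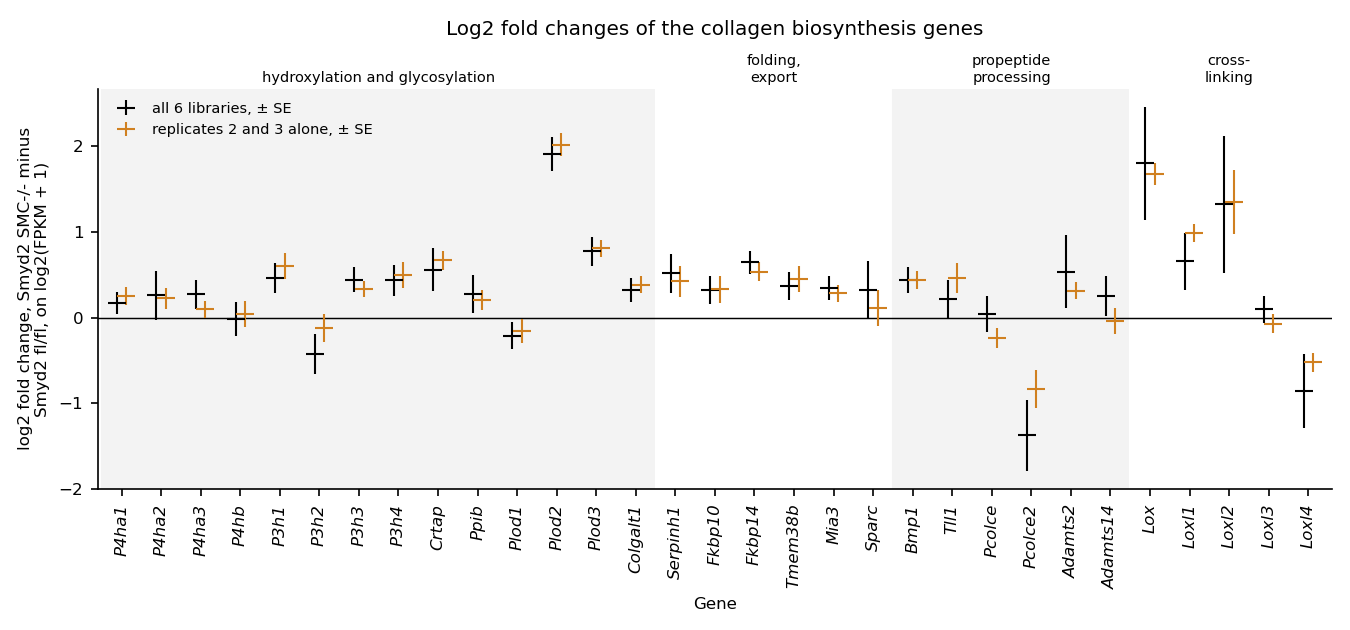
Log2 fold change (y axis, *Smyd2* SMC-/- minus *Smyd2* fl/fl on log2(FPKM + 1)) ± SE of the 31 tested collagen biosynthesis genes (x axis) by step, over 6 libraries (black) and replicates 2 and 3 alone (orange). *Plod2* lies at 1.91 and 2.02, and 26 of the 31 black marks lie above 0.

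Of 9 collagen receptor genes, 7 were tested, and limma called 0 without a block (1 higher at an unadjusted p under 0.05, against 9.16% of all genes) and 2 with it, both higher, against 4.72%. In replicates 2 and 3 alone *Ddr1* was called higher, against 11.9% of all genes. *Itga11*, another collagen-binding integrin chain, was called lower there, against 17.2%, and *Itga1* was not called. *Itga11* had 6.34, 12.8 and 13.6 FPKM in Flox and 16.03, 8.50 and 10.4 FPKM in SMYD2 KO, so replicate 1 differed in the other direction, and its log2 fold change was 0.11 over the 6 libraries and −0.45 in replicates 2 and 3 alone. *Ddr1*, a receptor tyrosine kinase for collagen, had 57.0, 75.3 and 76.1 FPKM in Flox and 91.0, 125 and 126 FPKM in SMYD2 KO, without overlap (limma's adjusted p of 0.11 without and 0.023 with the block). *Itga1*, an integrin chain that binds type IV collagen, had 6.50, 11.4 and 13.0 FPKM and 11.2, 15.1 and 25.1 FPKM, with limma's adjusted p of 0.35 and 0.049. Of 8 turnover genes 5 were tested, with 0 called by limma without the block (1 higher at an unadjusted p under 0.05, against 9.16% of all genes) and *Mmp13* higher with it, against 4.72%. Called in replicates 2 and 3 alone were *Mmp13* and *Ctsk* higher, against 11.9% of all genes, and *Mmp2* lower, against 17.2%. The log2 fold change of *Mmp2* was −0.08 over the 6 libraries and turned to 0.04 after rescaling to TPM and after quantile normalization. *Mmp13*, a collagenase, had 1.88, 6.95 and 6.05 FPKM in Flox and 7.02, 53.1 and 42.1 FPKM in SMYD2 KO. Its groups did not overlap, by 0.07 FPKM, and limma's adjusted p was 0.17 without and 0.020 with the block at a log2 fold change of 2.29 ± 0.78. The adjusted p reached 0.34 for *Ddr1*, 0.72 for *Itga1* and 0.45 for *Mmp13* over 13 alternatives, from lowest values of 0.0021, 0.049 and 2.54e-05. For *Itga1* the log2 fold change moved from 0.66 to 0.39 without Flox replicate 1 and to 0.36 without SMYD2 KO replicate 3.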

How the data were processed

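RNA-seq of 6 libraries was analysed. The authors deposited FPKM rounded to 2 decimals, from paired BGISEQ-500 reads of poly-A RNA that they cleaned with SOAPnuke, aligned by HISAT and Bowtie2 and quantified by RSEM. Tool versions and the genome build are not given in the sources used here. The members and gene lists were chosen with earlier results of these data known. Genes whose mean FPKM reached 0.5 were tested on log2(FPKM + 1), which understates changes of low genes, with limma 3.58.1 in R 4.3.3 (trend and robust), adjusted by Benjamini-Hochberg over 12565 genes. Other steps used Python 3.11.15 with pandas 2.3.3, numpy 2.4.6 and matplotlib 3.10.9. The method was tested on simulated data, and the outcome is not given here.

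Named chains were those called without or with the replicate block, the chains of types I, III, IV (alpha1, alpha2), V and VI (alpha1 to alpha3), the 5 most abundant, and the 3 largest rises and falls. Of the lists, genes called in either fit and the lysyl oxidases were named. Other chains, *Plod1*, *Pcolce2*, *Itga11*, *Mmp2*, *Ctsk*, the markers named and the ratios were chosen after their values were seen. The numbers pair the libraries by their labels: same-numbered libraries deviated together from their group means (correlations over genes of 0.61, 0.46 and 0.53), although replicates 2 and 3 of different genotypes did so as much (0.46 and 0.44). Alternatives are a pseudocount of 0.1, no filter, the blocks, TPM, quantile normalization, replicates 2 and 3 alone and leaving out each library.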

Additional observations from a re-analysis of the deposited data

How the results depend on the processing

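Called genes numbered 152 lower and 154 higher in SMYD2 KO without a block. With the replicate block they were 719 and 593, with a block for replicate 1 against the others 1398 and 1152, in replicates 2 and 3 alone 2156 and 1494, after rescaling to TPM 99 and 247, and without 1 library each 16 to 313 and 16 to 373. Of the chains 1 was called lower and 0 higher (limma, with 4 and 3 at an unadjusted p under 0.05, against 11.2% and 9.16% of all genes). Lower chains were 0 with a pseudocount of 0.1, 0 with no filter, 0 after rescaling to TPM, 3 with the replicate 1 block, 7 in replicates 2 and 3 alone and 0 to 1 without 1 library each. Higher chains were 2 with the replicate block, 3 with the replicate 1 block, 5 in replicates 2 and 3 alone and 0 to 3 without 1 library each. The replicate block changed the call of 2 of 28 chains and of 10 of 19 named pathway genes, *Smyd2* included, and no other call among these. Many of these 19 genes were named because a fit called them, so that share follows from the choice. The lists held 31 biosynthesis, 7 receptor and 5 turnover genes that were tested, and no unnamed one changed its call. Of the markers, *Cd34*, *Ly6a*, *Sox9*, *Wt1* and *Upk3b* gained a call with the replicate block.

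Log2 fold changes of the tested chains and the pathway genes named changed sign as follows, none of them called over the 6 libraries. Those in replicates 2 and 3 alone were −0.00612 for *Col5a2*, −1.02 for *Col3a1*, −0.0473 for *Col11a1*, 0.0479 for *Col20a1*, −0.12 for *Col6a2*, −0.0720 for *Loxl3* and −0.45 for *Itga11*. After rescaling to TPM *Col6a1* was at 0.0408 and *Mmp2* at 0.0404. After quantile normalization *Col6a1* was at 0.15, *Col18a1* at −0.0178, *Col7a1* at −0.00809 and *Mmp2* at 0.0423. Without 1 library each, the values ranged from −0.26 to 0.42 for *Col5a2*, −1.29 to 0.71 for *Col3a1*, −0.60 to 1.04 for *Col11a1*, −0.0798 to 0.61 for *Col11a2*, −0.0519 to 0.35 for *Col4a5*, −0.37 to 0.56 for *Col4a6*, −0.21 to 0.19 for *Col20a1*, −0.35 to 0.11 for *Col6a1*, −0.13 to 0.36 for *Col6a2*, −0.12 to 0.18 for *Col18a1*, −0.42 to 0.47 for *Col28a1*, −0.39 to 0.55 for *Col7a1*, −0.0357 to 0.22 for *Loxl3*, −0.21 to 0.29 for *Itga11* and −0.29 to 0.0515 for *Mmp2*. The cause was not tested.

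The summed collagen FPKM kept its direction, with ratios of SMYD2 KO to Flox from 1.12 to 1.48 over its alternatives, each within the spread between libraries. Limits are the 3 libraries a group, replicate 1 standing apart in both genotypes, and replicates that no source describes as separate animals. Counts were not available, so the depth is an estimate and the precision of low chains is uncertain. RNA levels do not give collagen protein, its secretion or its cross-links.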
